A study of Homo sapiens with 10 samples.

Results

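Hke3 colorectal carcinoma cells were compared with and without THP1 macrophages on 4 arrays of the 10 in the study, each hybridised with RNA of 1 culture. Hke3 is a clonal line derived from HCT116, and THP1 is a monocytic leukaemia line. Of the Hke3 cultures, 1 was untreated, 1 had vitamin D3, 1 was cocultured with THP1 macrophages and 1 had both, and vitamin D3 was given for 24 hours. They are called the untreated, the vitamin D3, the coculture and the combined array here. The culture system kept both cell types apart and let soluble factors pass, so the arrays hold RNA of the Hke3 compartment. The labels give MEM for the colon cancer cells and RPMI for THP1 cells, and state neither the medium nor the cell numbers of the cocultures. The other 6 arrays hold HCT116 in the same 4 conditions and THP1 alone and with vitamin D3.

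The comparison asked what soluble contact with macrophages changed in Hke3 cells. It set the 2 cocultured arrays against the 2 without THP1, which gives 2 pairs of 1 array against 1, and the mean of both pairs does not depend on which array of a group had vitamin D3. No condition had a replicate, so the spread between the arrays of a group, which also differ in vitamin D3, took the place of replicate error in limma's test. Values are log2 intensities, a difference of 1 on this scale is a 2-fold change, and ± is the standard error of a difference from that test. Adjusted p-values are Benjamini-Hochberg values of limma's two-sided test over 13246 genes, and a gene rose or fell where this value lay under 0.05. The arrays give no counts, and their number limits the precision.

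The cells carried the markers of their label in part. EPCAM, CDH1, KRT8, KRT18 and KRT19 lay at 11.28 log2 or above on every Hke3 array, while the intestinal factors CDX1 and CDX2 and the brush border gene VIL1 lay between 6.36 and 7.61, with CDX1 and VIL1 about as low as in THP1. Macrophage RNA was scarce in all 4 cultures. The 17 macrophage markers measured had a median of 5.63 log2 in Hke3 alone, 5.45 with vitamin D3, 5.56 in coculture and 6.0 in coculture with vitamin D3, against 9.74 and 10.78 in THP1. Their summed levels ran from 96.7 to 98.1 in Hke3 and were 163 and 168 in THP1, and the pan-leukocyte gene PTPRC, at 10.70 or more in THP1, stayed between 4.23 and 4.4. The proteoglycan SRGN, the brightest marker in THP1 at 13.90, was at 4.72, 4.38 and 4.90 on the first 3 Hke3 arrays and at 6.28 in coculture with vitamin D3 (difference 1.04 ± 0.35, adjusted p = 0.105). The ACTB 3' minus 5' probe set difference, which grows as RNA degrades, was 0.94 and 0.72 without coculture and 0.62 and 0.56 with it, and the same measure for GAPDH stayed between -0.00 and 0.06. The part of either in the gene differences below was not tested.

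**Figure D1:**
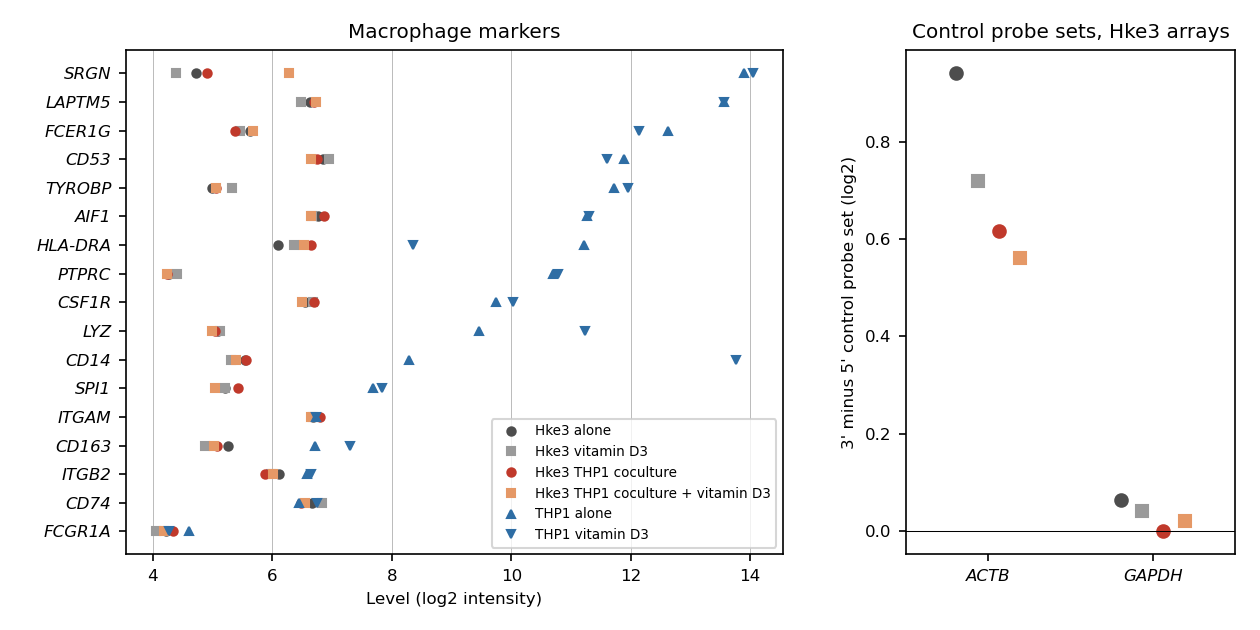
Left, log2 levels of 17 macrophage markers on the 4 Hke3 arrays (circles and squares) and the 2 THP1 arrays (triangles), ordered by their level in THP1 alone. Right, the 3' minus 5' control probe set difference of ACTB and GAPDH on the Hke3 arrays in the same symbols. The Hke3 points stay to the left for SRGN, LAPTM5 and TYROBP, with SRGN at 6.28 in coculture with vitamin D3, and the ACTB values fall from 0.94 to 0.56.

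Hypoxia genes led what rose in the cocultured cells, and genes of serine and asparagine synthesis were among what fell. Of 13246 genes tested, 1158 passed (8.74%): 642 rose (4.85%) and 516 fell (3.90%). Rises ran larger: 49 of the genes that rose and 8 of those that fell changed more than 2-fold, and the median difference was 0.43 among genes that rose, -0.36 among those that fell and -0.01 over all genes. All 1158 genes past the threshold had 1 sign in both pairs, and none had overlapping arrays. Both largely follow from the test, which sets the difference between these same arrays against the spread within groups. Each array holds RNA of a whole culture, so a change in all cells and a change in the share of some cells cannot be told apart. Over all genes tested, both cocultured arrays lay above both others for 25.8% and below them for 29.9%. Of the genes that rose, 12 exceeded the brightness threshold only on cocultured arrays. The count rests on every Hke3 array: it was 221 without the untreated array, 279 without the vitamin D3 array, 296 without the combined array and 633 without the coculture array, where the lone array left is assumed to vary like the other groups.

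ANKRD37, an ankyrin repeat protein gene induced by hypoxia, rose most. Its level was 9.31 in Hke3 alone, 8.96 with vitamin D3, 11.40 in coculture and 11.77 in coculture with vitamin D3. Both cocultured arrays lay more than 2 log2 above both others, and the difference of 2.45 ± 0.19 is a 5.46-fold rise (adjusted p = 0.000362). ANGPTL4, a secreted inhibitor of lipoprotein lipase, followed with 7.76 and 7.75 without coculture and 9.66 and 9.84 with it (1.99 ± 0.14). IGFBP3, which binds insulin-like growth factors, went from 7.03 and 6.95 to 8.67 and 9.08 (1.89 ± 0.21). The other rises among the 12 largest were NDRG1 (1.77), the aldolase gene ALDOC (1.70), PFKFB4 (1.63), the lysyl oxidase gene LOXL2 (1.59), the HIF prolyl hydroxylase gene EGLN3 (1.58), the lipid droplet gene HILPDA (1.49), the enolase gene ENO2 (1.44), PPFIA4 (1.41) and the collagen prolyl hydroxylase gene P4HA1 (1.40). Of these 12, 11 belong to the lists of HIF targets or of glycolysis described below, IGFBP3 being the exception. Both lists together hold 56 of the 13246 genes tested. They were chosen with earlier results of these data known, so this overlap is not independent evidence. All 12 kept the call when each array was left out in turn. As the mean of all probe sets, dim ones included, ANKRD37 gave 1.31, P4HA1 0.67 and LOXL2 0.65, each still past the threshold.

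The largest falls came from unrelated functions. HIRA, a histone H3.3 chaperone, was at 8.28 and 8.46 without coculture and at 6.91 and 6.55 with it, a 3.12-fold fall (-1.64 ± 0.12, adjusted p = 0.000362). CSTA, an intracellular inhibitor of cysteine proteases, was at 11.75 and 11.67 without and at 10.19 and 10.21 with coculture (-1.51 ± 0.08). For both genes the cocultured arrays lay below both others, and the gap between groups exceeded the gap between arrays of a group. AP1S1, an adaptor subunit of clathrin coats, fell by 1.30, RALGDS, an exchange factor for Ral GTPases, by 1.10, and PHGDH, the first enzyme of serine synthesis, by 1.04. ERGIC1 (-1.04), DCLK1 (-1.04), ZBTB37 (-1.01), the nucleolar chaperone gene NPM3 (-0.97), the lipid kinase gene PIP5K1A (-0.95), AAGAB (-0.91) and PITPNM1 (-0.91) completed the 12. As the mean of all probe sets HIRA gave -0.83, ERGIC1 -0.56 and AAGAB -0.49, each still past the threshold. ZBTB37 lay under the median of all values in coculture, which makes its size approximate. Of the 12, DCLK1 alone lost the call in leaving arrays out, without the untreated array (-0.80, adjusted p = 0.0993) and without the coculture array (-0.84, adjusted p = 0.0596).

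**Figure D2:**
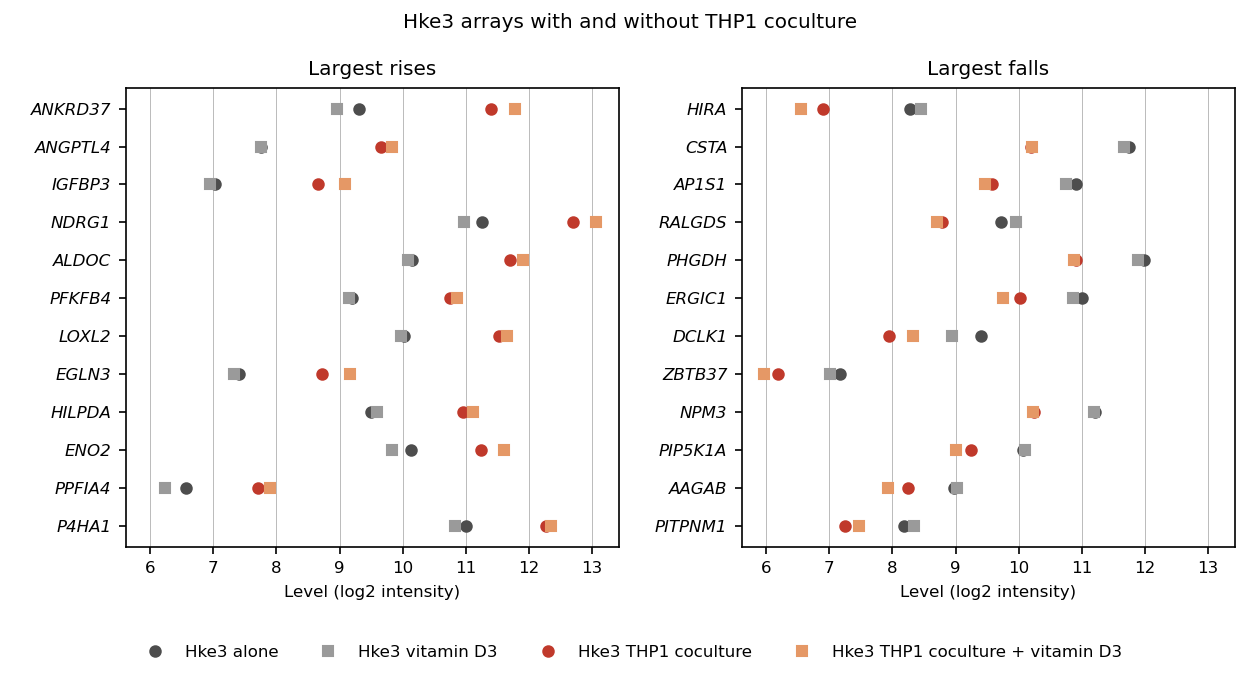
Log2 level on each of the 4 Hke3 arrays for the 12 largest rises (left) and the 12 largest falls (right), with grey symbols for the arrays without coculture and red or orange for those with it. For each of the 24 genes the cocultured arrays lie on 1 side of the others; ANKRD37 rose 5.46-fold and HIRA fell 3.12-fold.

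Hypoxia-inducible factors (HIF) are transcription factors whose alpha subunit is hydroxylated in oxygen by the prolyl hydroxylases EGLN1 to EGLN3 and then degraded through VHL. When oxygen is short the alpha subunit persists, pairs with ARNT and binds DNA at a short core, searched for below as the letters ACGTG. Its targets raise glucose uptake, glycolysis and lactate output, divert pyruvate from mitochondria and remodel collagen, and some of them, EGLN3 among them, feed back on the pathway. Many colon carcinomas express such targets.

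Of 37 HIF targets outside glycolysis, listed with earlier results of these data known, 35 had a usable probe set and 32 were tested. Of the 32, 30 rose and none fell, against 4.85% and 3.90% of all genes. Their median difference was 1.08, with 0.90 in the pair without vitamin D3 and 1.31 in the pair with it, while the median of all genes was -0.01. The pairs follow the vitamin D3 labels, which the levels of CYP24A1 below do not, and each is 1 array against 1. The difference was larger in the pair with vitamin D3 for 31 of the 32 (57.9% of all genes). The counts without 1 Hke3 array were 24 to 28. Genes of mitochondrial removal rose: BNIP3, a receptor for mitophagy, from 11.28 and 11.12 to 12.43 and 12.75 (1.40 ± 0.13), and its relative BNIP3L by 1.19. Collagen-modifying enzymes rose too, with P4HA1 at 1.40, the lysyl hydroxylase PLOD2 at 1.09, P4HA2 at 0.75 and PLOD1 at 0.58. The histone demethylases KDM3A (1.40) and KDM4B (0.54) rose, as did the transcriptional repressors BHLHE40 (1.14), BHLHE41 (0.87) and MXI1 (0.80) and the peptide hormone gene ADM (1.17). NDRG1, at 11.27 and 10.98 without coculture, reached 12.70 and 13.07 with it. The 2 members that did not pass were VEGFA, the vascular growth factor (11.26, 11.08, 11.24 and 11.48, in the order untreated, vitamin D3, coculture, combined; 0.18 ± 0.11, adjusted p = 0.351), and the secreted glycoprotein gene STC2 (0.10 ± 0.10, adjusted p = 0.596). For both, the arrays of the groups overlapped.

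Of 24 glycolysis and lactate transport genes tested, 20 rose and none fell (4.85% and 3.90% of all genes), with a median difference of 0.58 (0.49 without and 0.65 with vitamin D3). All 24 had cocultured arrays above both others, against 25.8% of all genes. Sizes varied along the pathway. Glucose entry rose through SLC2A1, the main glucose transporter (8.19 and 8.08 to 9.10 and 9.23, difference 1.03), and through the hexokinases HK1 (0.67) and HK2 (1.10). HK2 depends on the probe set: 1 of its 2 bright ones went down. The mean over all HK2 probe sets, dim ones included, gave 0.23 (adjusted p = 0.0553). PFKFB4, which makes the activator of phosphofructokinase, rose from 9.20 and 9.15 to 10.75 and 10.86, and the phosphofructokinases PFKP (0.58) and PFKL (0.42) rose, while PFKM (0.09) and PFKFB3 (0.27) did not pass. Isoforms of 1 enzyme differed in size: ALDOC rose by 1.70 (10.15 and 10.08 to 11.71 and 11.91) and ALDOA by 0.57. ENO2 likewise rose by 1.44 and ENO1 by 0.40. PGK1 (0.53), PGAM1 (0.39), PKM (0.39), LDHA (0.37) and TPI1 (0.34) rose by less, from levels of 13.04 or more. GAPDH, the brightest of the list at 14.85 and 14.86, ended higher on both cocultured arrays (0.15 ± 0.06, adjusted p = 0.169), near the upper end of the scale at 15.2. PDK1, the kinase that turns off pyruvate dehydrogenase, rose by 1.37. The glycogen enzymes GBE1 (1.0) and GYS1 (0.68) rose as well. The count was 13 without the untreated array, 11 without the vitamin D3 array, 13 without the combined array and 18 without the coculture array, and all 24 differences stayed above 0 in each.

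The subunits and regulators of HIF themselves moved little, apart from the prolyl hydroxylase genes EGLN3 and EGLN1. EGLN3 went from 7.41 and 7.32 to 8.73 and 9.17 and EGLN1 from 11.10 and 11.16 to 11.71 and 11.90, and both are HIF targets. HIF1A, the alpha subunit of HIF-1, was at 12.81 and 12.71 without and at 12.51 and 12.49 with coculture (-0.26 ± 0.07, adjusted p = 0.0433). That call was lost without any 1 of the 8 colon cancer arrays, with adjusted p-values between 0.0545 and 0.237, so the size is given and no call rests on it. EPAS1, the alpha subunit of HIF-2 (0.26 ± 0.10, adjusted p = 0.141), ARNT (0.11), VHL (-0.14) and the asparaginyl hydroxylase gene HIF1AN (-0.02) did not pass. Nor did CITED2 of the same list (0.37 ± 0.12, adjusted p = 0.0975). Transcript levels say nothing of the hydroxylation or amount of the HIF protein, which the arrays do not measure.

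The promoters of 4 of the largest rises show how the letters ACGTG are spread. Each line gives the 250 bases before the transcription start, 5′ to 3′ on the gene's strand, from RefSeq on GRCh38.p14, with capitals where ACGTG or its reverse complement CACGT was found. ANKRD37 lies on the plus strand (chr4:185396591-185396840) and has 2 such stretches, the nearer one starting 143 bases before the start. ANGPTL4, also on the plus strand (chr19:8363905-8364154), has 1, and ALDOC on the minus strand (chr17:28576896-28577145) has 2. PFKFB4 on the minus strand (chr3:48556804-48557053) has none of these letters in this window. Other forms of the HIF core were not searched for.
ANKRD37: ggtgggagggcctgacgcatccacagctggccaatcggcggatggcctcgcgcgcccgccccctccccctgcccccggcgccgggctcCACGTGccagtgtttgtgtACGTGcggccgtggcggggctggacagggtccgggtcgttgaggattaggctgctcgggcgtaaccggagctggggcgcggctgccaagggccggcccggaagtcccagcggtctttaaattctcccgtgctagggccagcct
ANGPTL4: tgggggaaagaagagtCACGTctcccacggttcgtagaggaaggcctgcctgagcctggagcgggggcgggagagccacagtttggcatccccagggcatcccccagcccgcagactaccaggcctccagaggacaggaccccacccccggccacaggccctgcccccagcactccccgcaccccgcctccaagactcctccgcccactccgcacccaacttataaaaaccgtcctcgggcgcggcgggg
ALDOC: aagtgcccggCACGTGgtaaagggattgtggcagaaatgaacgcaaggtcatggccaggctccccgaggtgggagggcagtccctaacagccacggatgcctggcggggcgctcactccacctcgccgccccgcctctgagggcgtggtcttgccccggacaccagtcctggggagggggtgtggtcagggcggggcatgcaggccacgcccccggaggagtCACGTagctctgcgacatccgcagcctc
PFKFB4: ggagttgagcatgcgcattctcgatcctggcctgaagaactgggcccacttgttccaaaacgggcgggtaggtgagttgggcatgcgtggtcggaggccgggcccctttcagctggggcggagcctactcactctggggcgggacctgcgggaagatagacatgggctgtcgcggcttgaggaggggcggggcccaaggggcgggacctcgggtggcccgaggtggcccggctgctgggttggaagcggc
In windows of this length, counted on both strands and at any listed start site, ACGTG occurred in 28% of the 10648 tested genes with a promoter entry. It occurred in 15 of 23 glycolysis genes (65.2%) and in 17 of 25 HIF targets (68.0%). ACGTG is part of the E-box CACGTG, which other factors bind and which occurred in 10.9% of all, 26.1% of the glycolysis genes and 32.0% of the HIF targets. A match describes letters and is not a measured binding site.

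Sterol genes rose in part. Of 19 genes of cholesterol synthesis and uptake tested, 6 rose and none fell (4.85% and 3.90% of all genes), with a median of 0.22. STARD4, a cholesterol carrier, went from 9.11 and 9.02 to 10.01 and 10.21 (1.04 ± 0.12, adjusted p = 0.00204). INSIG1, which holds the sterol-sensing SREBP complex in the endoplasmic reticulum and is itself an SREBP target, went from 9.72 and 9.88 to 10.56 and 10.73 (0.84 ± 0.11). The reductase gene DHCR7 (0.56), the oxidase gene MSMO1 (0.44), the isomerase gene IDI1 (0.44) and the epoxidase gene SQLE (0.37) rose by less. Of 4 bright IDI1 probe sets 2 went down, and the mean over all IDI1 probe sets, dim ones included, gave 0.08 (adjusted p = 0.483). Without the untreated array 4 members rose, and 3 each without the vitamin D3 array and without the combined array; STARD4 and INSIG1 kept the call throughout. Of 10 fatty acid synthesis genes, the phosphatidate phosphatase gene LPIN1 (0.51) and the desaturase gene SCD (0.42) rose, and FASN, the fatty acid synthase, did not pass (0.22 ± 0.13, adjusted p = 0.335). As the mean of all its probe sets SCD gave 1.03. LPIN1 lost the call without the untreated array, and SCD lost it there, without the vitamin D3 array and without the combined array.

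ATF4 is the transcription factor of the integrated stress response; it is translated when amino acids are short or the endoplasmic reticulum is stressed, and it induces amino acid synthesis, amino acid import and tRNA charging. Of 25 genes of this response tested, 12 fell and none rose (3.90% and 4.85% of all genes), with a median of -0.30. PHGDH went from 11.98 and 11.89 to 10.92 and 10.87 (-1.04 ± 0.07, adjusted p = 0.000221), PSAT1, the next enzyme of serine synthesis, from 13.20 and 13.04 to 12.60 and 12.59, and the last, PSPH, did not pass (0.10). ASNS, which makes asparagine, went from 13.60 and 13.51 to 12.82 and 12.82 (-0.73 ± 0.07). For PHGDH, PSAT1 and ASNS the arrays of a group lay close together and the groups did not overlap. The transporter genes SLC7A11 (-0.38), SLC7A5 (-0.40) and SLC3A2 (-0.43) fell, as did the AP-1 repressor gene JDP2 (-0.78), SESN2 (-0.55), CHAC1 (-0.51), TRIB3 (-0.46), CEBPG (-0.39) and PCK2 (-0.47). ATF4 itself (-0.25 ± 0.07, adjusted p = 0.0572) and DDIT3, a pro-apoptotic target (0.09), did not pass. The count was 4 without the untreated array, 6 without the combined array and 8 without either other Hke3 array. PHGDH, ASNS and JDP2 kept the call in each, and as the mean of all probe sets JDP2 gave -0.43 and ASNS -0.35.

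The ATF4 response acts through the composite element TGATGNAA, in which N is any base. The promoter of ASNS (minus strand, chr7:97872409-97872658) carries it starting 68 bases before the start, in capitals. The windows shown for the largest falls of the list, PHGDH (plus strand, chr1:119711684-119711933) and JDP2 (plus strand, chr14:75427474-75427723), do not carry it. ASNS has 2 listed start sites and JDP2 has 3, and only the first entry of each is shown.
ASNS: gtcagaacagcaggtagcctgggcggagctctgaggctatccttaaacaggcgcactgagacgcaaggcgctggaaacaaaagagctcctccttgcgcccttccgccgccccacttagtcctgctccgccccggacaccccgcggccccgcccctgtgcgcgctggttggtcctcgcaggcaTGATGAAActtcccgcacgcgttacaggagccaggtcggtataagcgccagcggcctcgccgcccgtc
PHGDH: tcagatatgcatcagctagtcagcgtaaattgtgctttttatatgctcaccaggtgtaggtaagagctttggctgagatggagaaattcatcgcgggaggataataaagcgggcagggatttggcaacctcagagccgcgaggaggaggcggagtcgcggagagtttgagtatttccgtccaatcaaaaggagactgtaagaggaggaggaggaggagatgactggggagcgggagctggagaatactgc
JDP2: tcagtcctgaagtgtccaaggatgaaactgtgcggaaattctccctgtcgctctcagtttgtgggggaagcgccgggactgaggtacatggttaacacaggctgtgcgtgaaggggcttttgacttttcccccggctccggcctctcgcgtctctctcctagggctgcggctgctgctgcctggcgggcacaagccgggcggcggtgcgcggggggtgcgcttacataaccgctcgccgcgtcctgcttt
On both strands, and at any listed start site of a gene, the element occurred in 2.45% of all tested genes with a promoter entry. Counted the same way, it occurred in 6 of 21 of the list (28.6%).

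Of 17 cytosolic aminoacyl-tRNA synthetase genes, which charge tRNAs with amino acids, 5 fell, 12 did not pass and none rose (3.90% of all genes fell; median -0.18): WARS1 (-0.55), YARS1 (-0.40), NARS1 (-0.39), SARS1 (-0.28) and IARS1 (-0.25). None of the 5 passed without the untreated array, 1 passed without the vitamin D3 array or without the combined array, and 2 without the coculture array or with a block for each pair of arrays of 1 vitamin D3 state. Of 25 endoplasmic reticulum chaperone and unfolded protein response genes, 3 fell and 1 rose (3.90% and 4.85% of all genes). SDF2L1 fell by 0.69 (9.26 and 9.46 to 8.65 and 8.68) and PDIA3 by 0.69, though the mean over all PDIA3 probe sets gave -0.21 (adjusted p = 0.0997). The main chaperone HSPA5, at 13.36 to 13.43 on all 4 arrays, differed by -0.01.

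**Figure D3:**
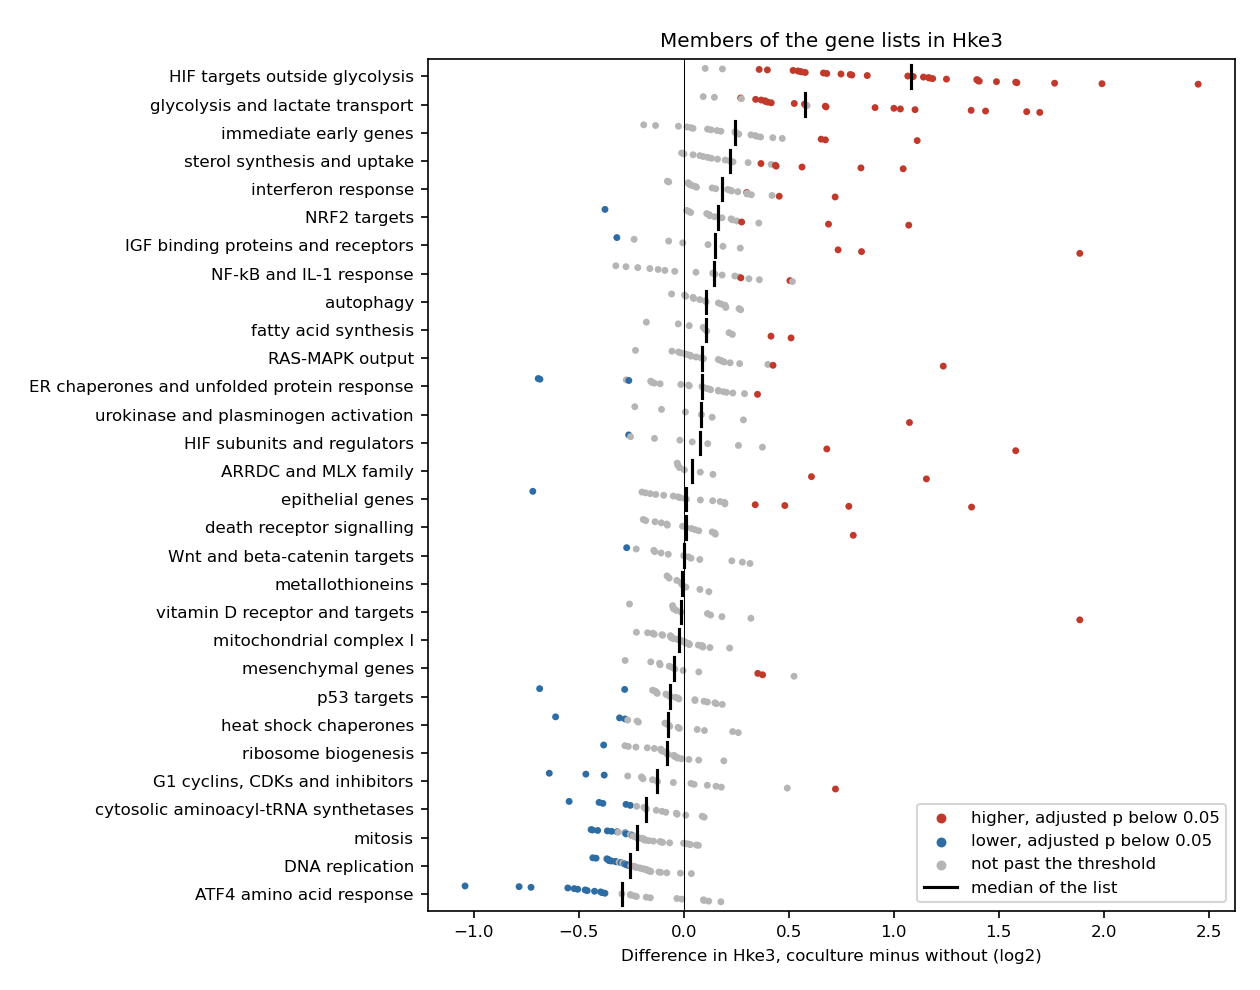
Log2 difference, coculture minus without, of every tested member of 30 gene lists in Hke3, ordered by the list's median (black bar). Red points rose, blue points fell and grey points did not pass an adjusted p of 0.05. The HIF and glycolysis lists stand to the right with medians of 1.08 and 0.58, and the ATF4, DNA replication and mitosis lists to the left with -0.30, -0.26 and -0.22.

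Genes of DNA replication and mitosis were lower in coculture by small amounts. Of 40 replication genes 15 fell and none rose (3.90% and 4.85% of all genes), and 39 had a difference below 0. Their median was -0.26, against -0.01 over all genes. MCM5, a subunit of the replicative helicase, was at 11.24 and 11.12 without and at 10.81 and 10.68 with coculture (-0.43 ± 0.09, adjusted p = 0.0224). UHRF1, which maintains DNA methylation at the fork, differed by -0.42, PCNA, the sliding clamp, by -0.36 and CDC45 by -0.36. Both cocultured arrays lay below both others for 37 of the 40, against 29.9% of all genes. The sizes are near the limit of the test: 9 fell without HCT116 alone or without HCT116 with vitamin D3, which enter only the shared spread, 5 fell without the coculture array, and none fell without any 1 of the other 3 Hke3 arrays. With a block for each pair of arrays of 1 vitamin D3 state, 1 replication gene and 3 mitosis genes fell, and UHRF1 (adjusted p = 0.0524) and PCNA (0.0692) did not pass. Of 38 mitosis genes 9 fell and none rose, against the same shares of all genes (median -0.22). The falls were led by the condensin gene NCAPH (-0.44 ± 0.06, adjusted p = 0.0053), the kinesin gene KIF23 (-0.43) and the kinetochore gene NDC80 (-0.41). Without the untreated array 2 mitosis genes fell, without the vitamin D3 array 1 did, and 3 did without either coculture array. MKI67, the proliferation antigen, did not pass (0.06), and 3 of its 4 bright probe sets had the opposite sign. Around the G1 checkpoint, cyclin CCNE2 fell by 0.47, the transcription factor gene E2F2 (lost without 3 of the Hke3 arrays) by 0.38 and RBL1 by 0.64, and the inhibitor CDKN1C rose from 8.36 and 8.37 to 8.96 and 9.22 (0.72 ± 0.09, adjusted p = 0.00352); CDKN1A, at 10.87 to 11.02, did not pass (0.11). As the mean of all probe sets E2F2 gave -0.14 (adjusted p = 0.227), RBL1 -0.23 (adjusted p = 0.0530) and CCNE2 -0.25. RBL1 lost the call without the untreated array (adjusted p = 0.105), without the vitamin D3 array (0.117) and without the coculture array (0.0837).

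Some growth factor and signalling genes changed, and the lists are read against the 8.74% of all genes that passed. The IGF list gave 3 rises and 1 fall among 10 genes. IGFBP6, a second binding protein, went from 10.00 and 10.15 to 10.72 and 11.12 (0.85 ± 0.14), and IRS2, an adaptor below the insulin and IGF-1 receptors, from 9.97 and 9.83 to 10.45 and 10.82 (0.73 ± 0.11), while IGF2R fell by 0.32, a call lost without 6 of the 8 arrays and as the mean of its probe sets (-0.08), and IGF1R differed by -0.01. IGFBP6 lost the call without the untreated array (adjusted p = 0.0882) and without the vitamin D3 array (0.0507), and IRS2 lost it without the vitamin D3 array (0.0662). SPRY1, a feedback inhibitor of receptor tyrosine kinase signalling, rose from 7.12 and 6.81 to 7.98 and 8.43 (1.24 ± 0.15, adjusted p = 0.00249), and with the phosphatase gene DUSP5 (0.42) it was 1 of 2 rises among 20 RAS-MAPK output genes, a share near that of all genes; SPRY1 kept the call without each array, and DUSP5 lost it without 6 of the 8. Of 23 immediate early genes, the AP-1 gene FOSL2 (9.0 and 9.13 to 10.16 and 10.19; 1.11 ± 0.07), KLF6 (0.67) and MAFF (0.65) rose; FOS, at 10.25 and 10.81 without and 11.07 and 10.69 with coculture, did not pass. FOSL2 kept the call without each array, and KLF6 and MAFF did not. PLAUR, the urokinase receptor, went from 9.87 and 9.65 to 10.64 and 11.03 (1.07 ± 0.19, adjusted p = 0.0127), and its ligand PLAU did not pass (-0.23). PLAUR lost the call without the untreated array (adjusted p = 0.0655), without the vitamin D3 array (0.0874) and without the combined array (0.0737).

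Single genes of the inflammatory lists rose and none fell, where 4.85% of all genes rose and 3.90% fell. Of 22 interferon response genes 3 rose, IRF7 (0.72), IRF9 (0.45) and IFITM3 (0.30), and of 18 NF-kB and IL-1 response genes the inhibitor TNIP1 (0.51) and RELA (0.27) rose. TNIP1 gave 0.11 as the mean of all its probe sets (adjusted p = 0.278). With the pair block 1 interferon gene and no NF-kB gene passed. TNIP1 lost the call without the untreated array, without the vitamin D3 array and without the combined array, and RELA without any 1 of the 8 arrays. The interferon count was 0 without the untreated array or without the coculture array, 1 without the vitamin D3 array and 2 without the combined array. CXCL8, a neutrophil chemokine, was at 7.39 and 7.75 without and at 8.10 and 8.07 with coculture and did not pass (0.52 ± 0.18, adjusted p = 0.122), and NFKBIA, the NF-kB inhibitor, differed by -0.12. Of 16 NRF2 targets 3 rose, among them AKR1C3 (6.18 and 6.04 to 7.21 and 7.15; 1.07) and the glutathione synthesis gene GCLC (0.69), and SLC7A11, already counted with ATF4, fell. AKR1C3 lost the call without the vitamin D3 array (adjusted p = 0.0633), and GCLC kept it without each array. Among 21 epithelial genes KRT15 (7.62 and 7.67 to 8.81 and 9.22; 1.37), ELF3 (0.79), KRT19 (0.48) and JUP (0.34) rose and KRT7 fell by 0.72, though the mean over all KRT7 probe sets gave -0.19 (adjusted p = 0.125). ELF3 gave 0.47 as the mean of all its probe sets (adjusted p = 0.0507). Without the untreated array none of the 4 rises passed, and 1 to 3 did without each other Hke3 array. TNFRSF10D, a decoy receptor for TRAIL, rose from 9.53 and 9.35 to 10.17 and 10.32 (0.81 ± 0.10) and was the only call among 15 death receptor genes, and BAX, an apoptosis effector, fell by 0.69 (8.24 and 8.48 to 7.70 and 7.65), 1 of 2 falls among 21 p53 targets. Both kept the call without each array.

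Some lists held no call. None of 33 mitochondrial complex I genes, 15 autophagy genes, 8 metallothioneins or 8 macrophage markers bright enough to test passed the threshold in either direction, with medians of -0.02, 0.11, -0.01 and 0.04. At an unadjusted p under 0.05 in limma's test the counts were 2, 3, 0 and 2, where 3324 of all 13246 genes had such a p. Where 3.90% of all genes fell, 1 of 24 ribosome biogenesis genes did, NIP7 (-0.38), near that share. Of 16 heat shock genes 3 fell, HSPH1 (-0.61), CHORDC1 (-0.31) and HSPE1 (-0.28), and of 13 Wnt targets 1 fell, ZNRF3 (-0.27). Of these 5, HSPH1 alone kept the call without each array. The vitamin D receptor gene VDR differed by -0.05, and CYP24A1, its best known target, was at 10.89 alone, 12.35 with vitamin D3, 12.25 in coculture and 10.89 in coculture with vitamin D3. CYP24A1 was thus high on 1 array labelled with vitamin D3 and on 1 labelled without it, and 1 label field of the Hke3 array with vitamin D3 calls its cells untreated. The means of both pairs used here do not depend on these labels. The values given per pair, the fits with a block for each pair and the fit with a vitamin D3 term do.

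**Figure D4:**
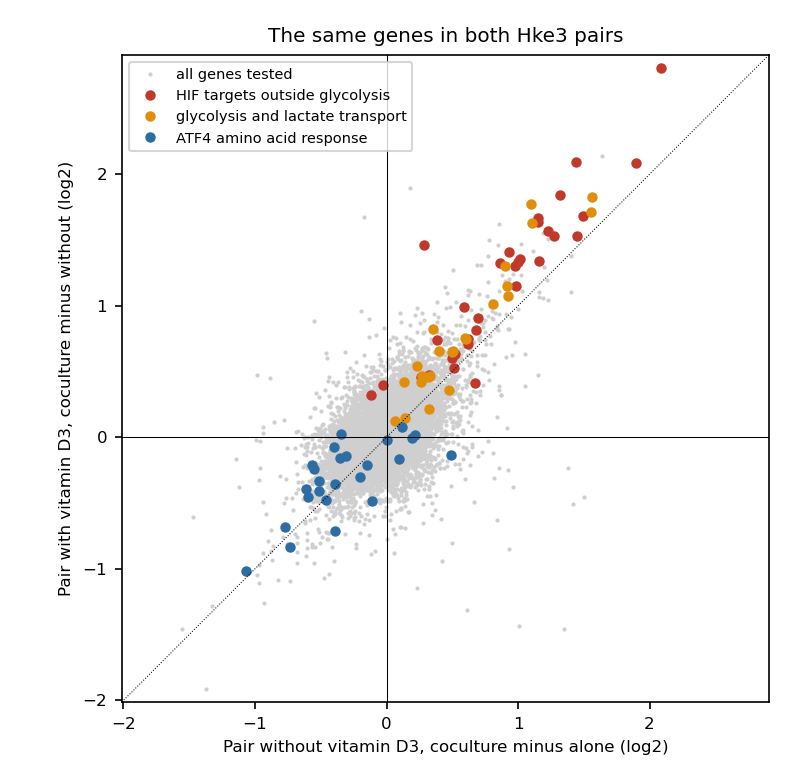
Coculture difference of each of 13246 genes in the pair without vitamin D3 (x axis) against the pair with it (y axis), both log2, with HIF targets in red, glycolysis genes in orange and ATF4 response genes in blue. The pairs follow the vitamin D3 labels, which the levels of CYP24A1 do not. The dotted line marks equal values. The HIF targets' medians are 0.90 and 1.31, and 31 of 32 lie above the line, and 4603 genes of the whole set have opposite signs in the pairs.

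HCT116 was cocultured in parallel on 4 arrays of its own, and the difference between the lines was tested as an interaction in the same limma fit. The differences of hypoxia genes were larger in Hke3, and those of ATF4 genes had opposite medians in the lines. No test was run within HCT116. In all, 731 genes had a different coculture difference (5.52%), higher in Hke3 for 340 (2.57%) and lower for 391 (2.95%). Of the 12 largest rises in Hke3, 11 were among the 340, NDRG1 being the exception with 0.99 in HCT116, and of the 12 largest falls 11 were among the 391. These genes were picked for their Hke3 difference, which is also part of the contrast, so both counts largely follow from the choice. ANKRD37 differed by 0.33 in HCT116 and by 2.45 in Hke3, a gap of 2.12 ± 0.27 (adjusted p = 0.00523); without coculture it was at 10.10 and 10.09 in HCT116, about 1 log2 above Hke3. PFKFB4 differed by -0.12 in HCT116 (gap 1.75 ± 0.18). HIF targets had a median of 0.21 in HCT116 against 1.08 in Hke3, and the gap passed for 20 of 32, higher in Hke3 for each of them. For glycolysis the medians were 0.04 and 0.58, and the gap passed for 14 of 24, again higher in Hke3. Sterol genes had medians of -0.09 and 0.22, with 9 of 19 higher in Hke3.

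For the ATF4 response the medians were 0.26 in HCT116 and -0.30 in Hke3. The gap passed for 15 of 25 genes, all lower in Hke3, against 2.95% of all genes. SESN2, a sensor of leucine, differed by 1.14 in HCT116 and by -0.55 in Hke3 (gap -1.69), CHAC1 by 1.08 and -0.51, and TRIB3 by 1.09 and -0.46. PHGDH and ASNS differed by -0.02 and 0.11 in HCT116, beside gaps of -1.02 and -0.83. DDIT3 was the reverse, with 1.77 in HCT116 and 0.09 in Hke3. Of the synthetase genes 8 of 17 were lower in Hke3, and of the p53 targets 7 of 21, against the same 2.95%. GADD45A was among these p53 targets (1.03 in HCT116, -0.04 in Hke3). Replication genes were lower in both lines: their median was -0.38 in HCT116 and -0.26 in Hke3, and all 40 lay below 0 in HCT116. The gap passed for 2 of 40, both higher in Hke3, where 2.57% of all genes were. The count of 731 was 236 to 319 without any 1 of the Hke3 arrays other than the coculture array (516) and 299 to 441 without an HCT116 array, the lowest value coming without the untreated array.

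**Figure D5:**
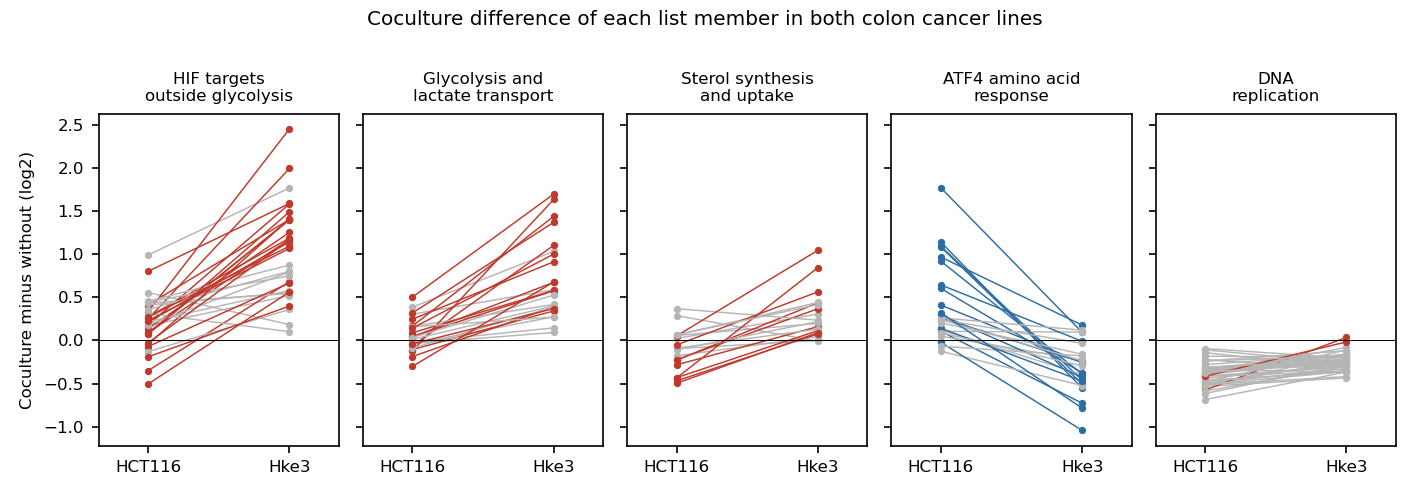
Coculture difference (log2) of each tested member of 5 gene lists in HCT116 (left of each panel) and Hke3 (right), joined by a line. Red lines mark genes whose difference was higher in Hke3 and blue lines those lower in Hke3 at an adjusted p under 0.05, and grey lines did not pass. HIF and glycolysis genes climb towards Hke3, ATF4 genes drop, and DNA replication genes stay below 0 on both sides.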

How the data were processed

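RNA of 10 cultures was hybridised to 1-colour oligonucleotide arrays, 1 array per culture. The authors deposited log2 values normalised by RMA with the R package affy, per the submitters' processing notes; whether all 10 arrays were normalised together is not given in the sources used here. Values ran from 2.98 to 15.2 and array medians from 6.15 to 6.21.

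Of 54675 probe sets, 41097 name 1 gene, 1801 name several and 11777 none in the platform annotation; only the first kind was used. Symbols were updated through gene identifiers, and 19735 of 19775 genes matched RefSeq. Each gene was represented by the probe set with the highest mean over the 8 colon cancer arrays and tested where its highest value there exceeded 6.18, the median of all values. This left 13246 genes.

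limma 3.58.1 in R 4.3.3 was fitted to the 8 colon cancer arrays as 4 groups of 2, line by coculture, with 4 residual degrees of freedom and no vitamin D3 term. The contrasts were the Hke3 coculture difference and its difference from that of HCT116. Tests were two-sided with Benjamini-Hochberg adjustment at 0.05, and were tested on simulated data first. The arrays of a group differ in vitamin D3 and are not stated to be replicates, so p-values measure only the spread between these arrays.

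Genes named by rule were the 12 largest rises and falls with 1 sign in both pairs, the 6 largest gaps between lines in each direction, up to 5 members of each of 32 lists, and a fixed few; 1 of those few is not reported here. Other list members were named for their role after their values were seen. The comparison, members and lists were chosen with earlier results of these data known. Alternatives covered the brightness threshold, probe set choice, normalisation, variance moderation, a vitamin D3 term, a block for each pair, a minimum fold, the Hke3 arrays alone, and each array left out. Promoter sequences are from RefSeq on GRCh38.p14. Figures used Python 3.11.15, pandas 2.3.3 and matplotlib 3.10.9.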

Additional observations from a re-analysis of the deposited data

Results flagged for a closer look

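The coculture difference was not the same in both lines for 731 genes in limma's interaction test. Higher in Hke3, the 6 largest gaps were those of ANKRD37 (2.12), PFKFB4 (1.75), ANGPTL4 (1.74), SPRY1 (1.53), PPFIA4 (1.45) and MIR210HG (1.44), the host gene of a hypoxia-induced microRNA, which went from 7.39 and 7.31 to 8.62 and 8.82 in Hke3 and differed by -0.07 in HCT116. Lower in Hke3, the 6 largest were those of IL20RB (-2.37), CLGN (-2.16), LURAP1L (-2.12), LAMP3 (-2.02), NRP1 (-2.01) and NIBAN1 (-1.96). IL20RB, a subunit of the IL-20 receptors, fell by 0.75 in Hke3 and differed by 1.62 in HCT116; the fall was lost without the untreated array (-0.53, adjusted p = 0.0959) and without the array with coculture and vitamin D3 (adjusted p = 0.0934). NIBAN1, induced in stress, fell by 0.79 in Hke3 and differed by 1.17 in HCT116. CLGN, a testis chaperone, the dendritic cell marker LAMP3, the semaphorin receptor gene NRP1 and LURAP1L did not pass in Hke3, with 0.05, 0.21, 0.37 and -0.11, and differed by 2.21, 2.23, 2.38 and 2.01 in HCT116. NRP1 lay under the brightness threshold of 6.18 on all Hke3 arrays (4.95 to 5.71) and in HCT116 without coculture (4.35 and 4.91). Only the cocultured HCT116 arrays exceeded it (7.17 and 6.85). PPFIA4 lay under it on every HCT116 array (5.58 to 5.71). The sizes of the NRP1 and PPFIA4 gaps are therefore approximate.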

How the results depend on the processing

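The Hke3 count of 1158 genes was 580 with no brightness threshold, 1934 over single probe sets, 346 with a block for each pair, 22 at a minimum of 1.5-fold and 766 with the 4 Hke3 arrays alone, and 221 to 1076 with 1 array left out. The count of 731 between the lines was 394 with no brightness threshold, 1112 with the 75th percentile threshold, 1286 with trended and robust variances, 214 with the block and 13 at 1.5-fold, and 236 to 516 with 1 array left out. The block and the single arrays left out also lower the residual degrees of freedom. Over 179 named genes, 2902 of 3365 values kept direction and side of the threshold, 402 no longer passed, 60 newly passed and 1 reversed: S100A10, 0.28 and not past the threshold, gave -0.41 as the mean of all its probe sets. The 12 largest rises kept their calls except 3 lost at 1.5-fold; of the falls 8 were lost there, and DCLK1 also with the block (adjusted p = 0.0553). Of 96 list medians 18 moved by more than the spread between arrays, and that of the endoplasmic reticulum list changed from 0.09 to -0.02 with the mean of all probe sets. The block joins the 2 arrays of 1 line and labelled vitamin D3 state, so its results depend on the vitamin D3 labels. Each condition has 1 array, so no replicate numbers pair the arrays. Dim genes near 6.18 have the least signal over background, and their sizes are approximate.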

Other observations

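Other genes outside the lists were chosen after their values were seen. Next to ANKRD37 on chromosome 4 in RefSeq order lie LRP2BP and UFSP2, and CFAP96 follows. LRP2BP rose from 6.45 and 6.43 to 7.85 and 7.81 (1.39 ± 0.08) and CFAP96 from 6.66 and 6.73 to 8.06 and 7.84 (1.25 ± 0.08), while UFSP2 between them rose by 0.26 (adjusted p = 0.0479) and SNX25 did not pass (0.14). The glycogen phosphatase subunit gene PPP1R3B rose by 1.13, the mannose phosphate isomerase gene MPI by 0.91 and PDK3, a relative of PDK1, by 0.77. The growth factor gene PDGFA rose from 8.95 and 8.89 to 9.83 and 10.13 (1.06), and the semaphorin gene SEMA4B rose by 1.13. PTCH1, the hedgehog receptor, rose by 0.74 and differed by -0.33 in HCT116 (gap 1.07). HOXB9 fell by 0.90 while its neighbour HOXB8 did not pass (-0.26). Each of these values is from limma's test over all 13246 genes.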
